A study of Rattus norvegicus with 20 samples.

Results

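Line-A is a rat line bred from crosses of Long-Evans (*Turku/AB*) (L-E) and Han/Wistar (*Kuopio*) (H/W) rats, and it carries the variant *Ahr* that its H/W parent strain carries. Liver mRNA of 4 Line-A rats was compared with that of 4 H/W rats, so the pair shares the *Ahr* variant. Outside *Ahr*, Line-A descends in part from H/W and in part from L-E. All 8 animals were males of 10 to 12 weeks that had been given corn oil by gavage 19 hours before the liver was taken, and each had its own Affymetrix RAE230A array, with no pooling of RNA. The other arrays of the series come from 4 rats each of Line-C (the other line from the L-E×H/W crosses), L-E and Sprague-Dawley (S-D), which all carry wild-type *Ahr* and also received only corn oil. H/W is a random-bred closed colony and S-D is out-bred, whereas L-E is in-bred. The rats of 1 group are separate animals, but Line-A stands here for 1 line and H/W for 1 colony. The values are log2 signals per ProbeSet (a set of short probes to 1 transcript), and a mean of at least 4 over the 20 arrays was taken as expression. This limit was reached by 7168 of 15923 ProbeSets, which are described below, and 6105 of them carry 1 gene symbol. Differences are given as Line-A minus H/W on the log2 scale, and a ProbeSet was called when its adjusted p in limma was under 0.01.

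In a line from a cross, each chromosome segment descends from 1 of the parent strains, and the mRNA level of a gene can follow the allele that the line inherited at the gene itself or at a gene elsewhere that regulates it. Liver is the main site of drug oxidation and conjugation, of cholesterol and bile acid synthesis and of plasma protein secretion, and strains of rat are known to differ in many of these enzymes. AHR is a ligand-activated transcription factor that induces drug-metabolizing enzymes such as *Cyp1a1*, and the variant form of H/W rats goes with resistance to dioxins.

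The arrays differed in ways that run with the groups. All 4 Line-A arrays (and the 4 Line-C arrays) were scanned on 1 day and came from 1 chip lot, whereas the H/W arrays were scanned on 3 other days and came from 2 other lots, so line and scan day cannot be told apart. All L-E arrays shared their scan days and chip lots with H/W arrays. The S-D arrays had a scan day, a chip lot and an operator of their own. The part of these batches in likenesses among the 5 populations was not tested. Whether calls held with scan day as a random block is given with the results. No day held both groups, so this block cannot separate scan day from line. A call that held in it can still come from the day. Line-A rat 4 (0.1866) and H/W rat 3 (0.0811) had the lowest array weights in limma. By the median absolute deviation from the group mean H/W rat 3 was also the most distant (0.1626), whereas Line-A rat 4 (0.0984) lay nearer to its group than Line-A rat 1 (0.1002) and all H/W rats. The array of H/W rat 3 was the only 1 of the 20 whose header names another station, and 351 ProbeSets were called without it. The median signal of the arrays of the series lay between 3.47 and 3.69. The 3′ over 5′ log2 difference of the *GAPDH* control probes, a sign of RNA quality, was 0.34 ± 0.12 in Line-A and 0.49 ± 0.22 in H/W (SD, n = 4 each). That of the beta-actin control probes was larger, at 1.95 ± 0.12 in Line-A and 2.03 ± 0.17 in H/W. Both *Ahr* ProbeSets lay under the limit, at 2.74 ± 0.12 and 3.14 ± 0.04 in Line-A and 2.74 ± 0.04 and 3.10 ± 0.08 in H/W, and so do not check the genotype. *Cyp1a1* averaged 4.56 ± 1.68 in Line-A and 3.73 ± 2.65 in H/W (difference 0.82, adjusted p = 0.643). Markers of hepatocytes were abundant on every array, with a summed signal of 18.24 to 18.31 in Line-A and 18.13 to 18.22 in H/W on the log2 scale over all 10 measured markers.

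Of the 7168 expressed ProbeSets, 436 (6.08%) were called between Line-A and H/W. Line-A was higher for 215 (3.0%) and lower for 221 (3.08%). The difference reached at least 2-fold for 142 ProbeSets (1.98%), of which 53 were higher and 89 lower in Line-A. At least 4-fold differences were found for 18 ProbeSets that were higher and 23 that were lower in Line-A. The median size of a called difference was 0.74 and the smallest was 0.18, and the median difference over all expressed ProbeSets was 0.03. The 4 Line-A and 4 H/W arrays did not overlap for 427 of the 436 called ProbeSets (97.9%), against 1263 of all 7168 (17.6%). Calling by the same difference raises the first share. With scan day as a random block 154 ProbeSets were called, 71 higher and 83 lower in Line-A, and all 154 were among the 436. A fit of the 8 Line-A and H/W arrays alone, which has fewer arrays to estimate the spread, called 47. Of these, 25 were higher and 22 lower in Line-A, and 45 were among the 436. With the arrays set to equal medians, 307 were called, and the split became 111 higher and 196 lower in Line-A. Leaving out 1 array gave 259 to 528 calls, with the lowest counts without Line-A rat 3 (259), Line-A rat 4 (269) and H/W rat 2 (287).

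**Figure D1:**
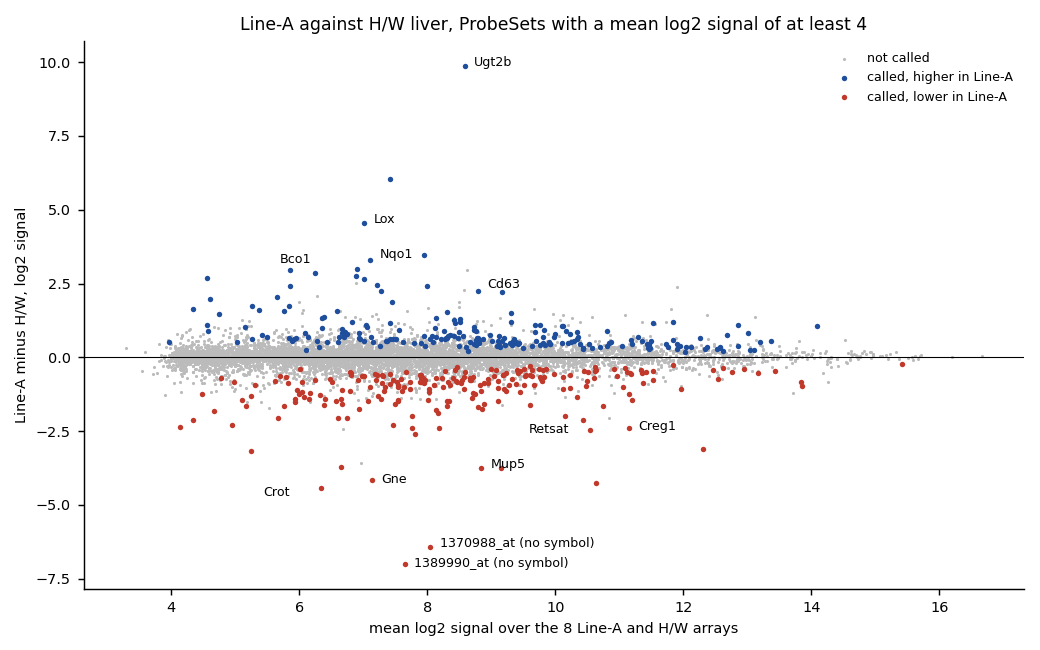
Line-A minus H/W difference (log2, vertical axis) against the mean log2 signal over the 8 Line-A and H/W arrays (horizontal axis) for the 7168 expressed ProbeSets, with the 436 called ProbeSets coloured by direction and the largest named. *Ugt2b* stands highest at 9.88, and the ProbeSets 1389990_at (-6.99) and 1370988_at (-6.44) stand lowest.

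The largest difference was in *Ugt2b*, a UDP-glucuronosyltransferase that conjugates steroids and drugs with glucuronic acid for excretion. Its ProbeSet read 13.63, 13.68, 13.55 and 13.23 in the 4 Line-A rats, against 3.90, 3.57, 3.20 and 3.89 in the 4 H/W rats. Every Line-A rat was high and every H/W rat was under the limit of expression, so the ratio is a lower bound. With values under 4 raised to 4, as for every such bound below, *Ugt2b* exceeded H/W at least 736-fold in Line-A (fitted difference 9.88 ± 0.14 SE, limma adjusted p = 1.35e-17, and 2.50e-16 with scan day as a random block). A second ProbeSet read 10.53, 10.49, 10.35 and 10.38 in Line-A, against 4.16, 4.69, 4.58 and 4.21 in H/W (difference 6.03 ± 0.11 SE, adjusted p = 4.88e-16). Members of the *Ugt2b* family share much of their sequence, so some of this signal may come from relatives. Probe sequences and strain genomes were not used here, so for this and every other gene a difference in mRNA level and a sequence difference under the probes cannot be told apart. The level in Line-A (13.52 ± 0.20) lay beside those of Line-C (13.55 ± 0.23) and S-D (13.76 ± 0.05), while H/W (3.64 ± 0.33) lay beside L-E (3.66 ± 0.04). Both parent strains were thus low where both lines bred from them were high. Of its relatives, *Ugt2b1* averaged 10.84 ± 0.14 in Line-A and 9.41 ± 0.57 in H/W (adjusted p = 0.0117), and *Ugt2b35* 13.38 ± 0.07 in Line-A and 13.11 ± 0.12 in H/W (adjusted p = 0.0207).

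The promoter of *Ugt2b* is shown because this gene carried the largest difference. It is the RefSeq sequence of the GRCr8 build, from 250 bases before the annotated start to 50 after it (chr14:20985199-20985498, + strand), which is the reference rat and not the sequence of Line-A or H/W. The capitals mark the letters TATAAA, whose first letter lies 43 bases before the start. These letters stand on either strand in 14.2% of 33469 rat promoters of the same length.
Ugt2b: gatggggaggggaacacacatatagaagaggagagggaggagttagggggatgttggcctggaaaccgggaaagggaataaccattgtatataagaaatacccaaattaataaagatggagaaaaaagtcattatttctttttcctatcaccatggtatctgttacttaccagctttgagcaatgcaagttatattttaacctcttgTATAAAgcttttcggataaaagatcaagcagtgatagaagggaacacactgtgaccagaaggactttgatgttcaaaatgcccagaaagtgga

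By the means of the 5 populations, which are given as a description with no test, the largest differences fell into several patterns. A first group of genes was low in H/W alone. *Bco1* encodes the enzyme that splits beta-carotene into retinal, and it read 7.28, 7.40, 7.43 and 7.20 in Line-A, against 4.09, 4.84, 4.49 and 4.07 in H/W. The groups lay far apart, and *Bco1* was 7.75-fold higher in Line-A (difference 2.95 ± 0.16 SE, adjusted p = 4.44e-09). Line-C, L-E and S-D averaged 7.24, 7.75 and 7.93, so H/W was the low group among the 5. *Nupr1*, a small stress-induced nuclear protein, read 8.32, 8.65, 7.96 and 8.63 in Line-A, against 5.72, 6.71, 4.41 and 4.77 in H/W. All Line-A rats lay above all H/W rats, which spread over more than 2 log2 units, and the difference was 2.99 ± 0.39 SE (adjusted p = 1.85e-04). The other groups averaged 7.64 to 8.95. *Cd63*, a tetraspanin of late endosomes and lysosomes, read 9.74, 9.92, 9.88 and 10.15 in Line-A, against 7.06, 7.69, 8.28 and 7.62 in H/W. It was 4.8-fold higher in Line-A (adjusted p = 2.28e-06), and the other 3 groups averaged 9.60 to 10.12. Of all expressed ProbeSets, 71 (0.991%) had the 4 H/W arrays on 1 side of the 16 other arrays, 24 above (0.335%) and 47 below (0.656%). Among the 436 called between Line-A and H/W there were 49 such ProbeSets (11.2%), 18 with H/W above (4.13%) and 31 with H/W below (7.11%). The 436 were chosen by their difference between Line-A and H/W, and this choice itself raises the share.

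A second group was high in H/W and S-D and low in Line-A, Line-C and L-E. *Gne*, the enzyme that starts sialic acid synthesis, read 5.08, 5.19, 4.92 and 5.0 in Line-A, against 8.95, 9.62, 9.19 and 9.12 in H/W. It was 18-fold lower in Line-A (difference -4.17 ± 0.20 SE, adjusted p = 8.60e-10). Line-C (5.21 ± 0.41) and L-E (5.40 ± 0.22) lay with Line-A, and S-D (8.63 ± 0.33) lay near H/W. *Retsat*, which saturates a double bond of retinol, read 9.47, 9.19, 9.28 and 9.28 in Line-A, against 12.19, 11.73, 11.70 and 11.46 in H/W. The Line-A rats lay close together and below every H/W rat (5.53-fold lower in Line-A, adjusted p = 1.58e-08). Line-C and L-E averaged 9.35 and 9.73, against 11.74 in S-D. *Mup5*, a major urinary protein that binds pheromones, read 6.80, 6.94, 6.99 and 7.09 in Line-A, against 10.89, 10.21, 10.86 and 10.91 in H/W. This difference (-3.76 ± 0.28 SE, adjusted p = 3.90e-07) rests on 1 of 3 *Mup5* ProbeSets. The others differed by -0.05 (adjusted p = 0.889) and -1.04 (adjusted p = 0.079), and the major urinary protein genes share most of their sequence. *Lss*, a gene of cholesterol synthesis with the same pattern, is described with its pathway below.

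A further group was low in Line-A and L-E and high in H/W and Line-C, so that each line resembled the parent that the other line did not. *Creg1*, a secreted and lysosomal glycoprotein, read 9.47, 10.06, 10.23 and 10.02 in Line-A, against 12.47, 11.98, 12.73 and 12.23 in H/W (5.31-fold lower in Line-A, adjusted p = 3.50e-07). Its means were 12.21 ± 0.16 in Line-C, 9.79 ± 0.29 in L-E and 11.63 ± 0.10 in S-D, and a second ProbeSet gave a smaller difference between Line-A and H/W (-0.94, adjusted p = 0.0439). *Itga1*, the collagen-binding integrin α1, read 3.62, 3.79, 3.59 and 3.66 in Line-A, against 7.06, 6.56, 6.90 and 6.79 in H/W. It was under the limit in every Line-A rat, which makes it at least 7.1-fold lower in Line-A (measured means 3.67 in Line-A and 6.83 in H/W, adjusted p = 1.46e-04). *Letm1*, an ion exchanger of the inner mitochondrial membrane, averaged 5.37 ± 0.24 in Line-A, 6.61 ± 0.08 in H/W, 7.47 ± 0.30 in Line-C and 4.78 ± 0.33 in L-E (Line-A minus H/W -1.24, adjusted p = 3.52e-04). The largest negative differences of all were in the ProbeSets 1389990_at and 1370988_at, to which the platform annotation used here gives no gene symbol. The ProbeSet 1389990_at read 3.97, 4.20, 4.19 and 4.24 in Line-A, against 11.22, 11.69, 10.56 and 11.09 in H/W (at least 126-fold lower in Line-A, adjusted p = 2.20e-13). Line-C averaged 10.19, whereas L-E (4.60) and S-D (4.80) lay near Line-A. The ProbeSet 1370988_at read 4.84, 4.82, 4.79 and 4.84 in Line-A, against 11.71, 11.68, 10.26 and 11.42 in H/W (86.9-fold lower in Line-A, adjusted p = 6.22e-11).

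Another group had its lowest or highest mean in Line-A. *Crot*, the peroxisomal enzyme that passes medium-chain acyl groups to carnitine, read 6.79, 3.24, 3.26 and 3.26 in Line-A, against 8.08, 8.65, 8.85 and 8.62 in H/W. Line-A rat 1 lay more than 3 log2 units above the other Line-A rats and was still below every H/W rat (difference -4.41, adjusted p = 1.66e-04). The other 3 were under the limit of 4, so *Crot* was at least 14.5-fold lower in Line-A, and without Line-A rat 1 the difference was -5.30. A second *Crot* ProbeSet had the same order, with 9.94, 6.03, 7.11 and 6.07 in Line-A, against 10.89, 10.86, 10.97 and 11.40 in H/W (adjusted p = 9.35e-04). The other 3 populations averaged 6.95 to 8.35 on the first ProbeSet. *Dsc2*, a desmosomal cadherin, read 7.83, 7.09, 6.68 and 6.39 in Line-A, against 9.05, 9.82, 9.48 and 9.15 in H/W (5.21-fold lower in Line-A, adjusted p = 1.29e-04), and the other means were 9.09 to 10.27. *Dhx36*, a helicase that unwinds G-quadruplex nucleic acids, read 8.67, 9.12, 9.56 and 9.46 in Line-A, against 6.07, 7.22, 6.94 and 6.93 in H/W. It was 5.32-fold higher in Line-A (adjusted p = 2.95e-06), with means of 7.74 to 7.88 elsewhere, whereas a second ProbeSet differed by 0.70 (adjusted p = 0.0371). *Bhlhe40*, a transcription repressor of the circadian clock, read 6.81, 7.70, 7.95 and 8.22 in Line-A, against 5.37, 4.55, 5.77 and 3.61 in H/W, and the means elsewhere were 5.39 to 6.08. Its difference of 2.85 (adjusted p = 0.00404) was not called without Line-A rat 2, 3 or 4 or H/W rat 2 or 4 (adjusted p up to 0.0162), nor with scan day as a random block (adjusted p = 0.0283). Over all expressed ProbeSets, 127 (1.77%) had the 4 Line-A arrays above (69, 0.963%) or below (58, 0.809%) the 16 other arrays. Among the 436 called there were 81 (18.6%), 42 above (9.63%) and 39 below (8.94%), a share that the choice of the 436 raises in the same way.

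**Figure D2:**
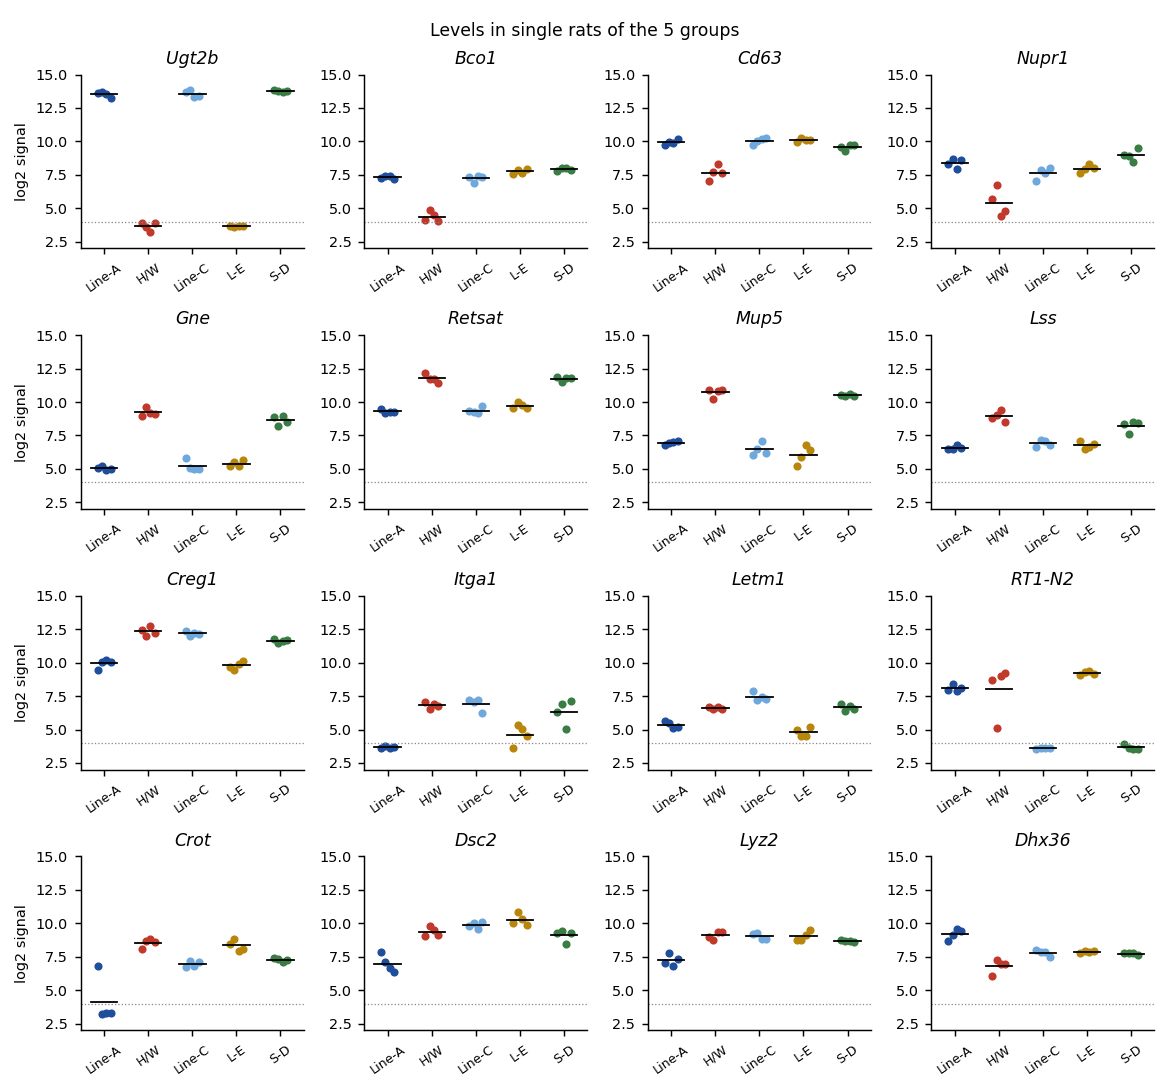
Log2 signal (vertical axis) of 16 named genes in each of the 20 rats, 1 panel per gene, with Line-A, H/W, Line-C, L-E and S-D along the horizontal axis, points for rats, bars for group means and a dotted line at the limit of 4. *Bco1*, *Nupr1* and *Cd63* are low in H/W alone, *Gne*, *Retsat* and *Lss* are high in H/W and S-D, *Creg1* and *Itga1* are low in Line-A and L-E, and *Crot*, *Dsc2* and *Lyz2* are low in Line-A.

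The 15 named genes with the largest positive and the 15 with the largest negative difference had no overlap of the 4 Line-A and 4 H/W arrays, by the rule that chose them. Of each 15, 11 were also called with scan day as a random block. The 4 higher genes that were not were *Lox* (adjusted p = 0.0461), *Nqo1* (0.0545), *Bhlhe40* (0.0283) and *Uba6* (0.0234). The 4 lower genes that were not were *Por* (0.0194), *Tle1* (0.0438), *Map3k1* (0.0151) and *Aspg* (0.0349). *Lox*, which crosslinks collagen, read 8.71, 10.07, 9.27 and 9.07 in Line-A, against 5.86, 2.42, 8.23 and 2.45 in H/W. The H/W rats fell into a pair near the bottom of the scale and a pair well above it, and the call (difference 4.54, adjusted p = 0.00763) was lost when any 1 array but that of H/W rat 3 was left out (adjusted p up to 0.0269). With values under 4 raised to 4 the *Lox* difference was 3.76. A second *Lox* ProbeSet differed by 2.42 (adjusted p = 0.00959), and there the groups overlapped. *Nqo1*, a quinone reductase of the AHR and antioxidant batteries, read 9.83, 8.77, 8.24 and 8.21 in Line-A, against 5.02, 6.71, 5.11 and 5.0 in H/W. Its difference of 3.30 (adjusted p = 0.00813) was lost when any 1 array but that of H/W rat 2 was left out (adjusted p up to 0.026). *Uba6*, a ubiquitin-activating enzyme, averaged 5.49 ± 0.47 in Line-A and 4.02 ± 0.44 in H/W (adjusted p = 0.00279), and was not called without Line-A rat 2 or 3 or H/W rat 2 or 3 (up to 0.0123).

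Further genes among the 30 had smaller differences. *Spink1*, a trypsin inhibitor, averaged 8.26 ± 0.48 in Line-A and 5.51 ± 0.67 in H/W (6.74-fold, adjusted p = 1.27e-04). A ProbeSet that shares sequence between related genes, used for the list of protease inhibitors, differed by 2.24 (0.0038, lost without Line-A rat 1 or 4, up to 0.0136), and another *Spink1* ProbeSet by 0.68 (0.121). *Olr59*, an olfactory receptor gene, averaged 8.44 ± 0.60 in Line-A and 6.0 ± 0.66 in H/W (adjusted p = 8.76e-04). *Dync1li1*, a light intermediate chain of the dynein motor, was 3.66-fold higher in Line-A (8.15e-06), and *Wipi1*, a protein of autophagosome formation, was 3.36-fold higher (4.38e-04). *Cyp2d4*, a P450 gene, averaged 5.16 in Line-A and 3.53, under the limit, in H/W, which makes its Line-A level at least 2.23-fold higher (adjusted p = 7.89e-04), and a second ProbeSet differed by 1.16 (0.0534). *Trio*, a guanine nucleotide exchange factor, averaged 6.55 in Line-A and 4.99 in H/W (3.44e-04). Among the genes lower in Line-A, *Vat1* read 6.63, 6.55, 6.58 and 6.31 in Line-A, against 9.41, 9.43, 9.89 and 7.71 in H/W (adjusted p = 2.09e-04). *Igfbp4*, which binds insulin-like growth factors in plasma, read 9.56, 9.11, 9.48 and 9.35 in Line-A, against 11.77, 11.90, 12.05 and 10.25 in H/W (4.33-fold lower in Line-A, adjusted p = 1.37e-04). H/W rat 4 was the lowest of its group for both genes and still above every Line-A rat.

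*Prrc2a*, *Map3k1* and *Tle1* had Line-A means under the limit. They were at least 2.49-fold (*Prrc2a*, 2.95 in Line-A and 5.32 in H/W, adjusted p = 5.69e-04), 2.63-fold (*Map3k1*, 3.28 in Line-A and 5.39 in H/W, 0.00206) and 3.45-fold lower in Line-A (*Tle1*, 3.81 in Line-A and 6.10 in H/W, 0.00568). *Tle1*, a corepressor, was not called without Line-A rat 2, 3 or 4 or H/W rat 1, 2 or 3 (up to 0.0221), and a second ProbeSet of *Map3k1*, a kinase of the JNK pathway, differed by -0.25 (0.536). *Aspg*, an asparaginase, averaged 5.58 ± 1.09 in Line-A and 7.64 ± 0.52 in H/W (adjusted p = 0.00423), and was not called without Line-A rat 2 or 4 or H/W rat 2 or 3 (up to 0.0169).

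**Figure D3:**
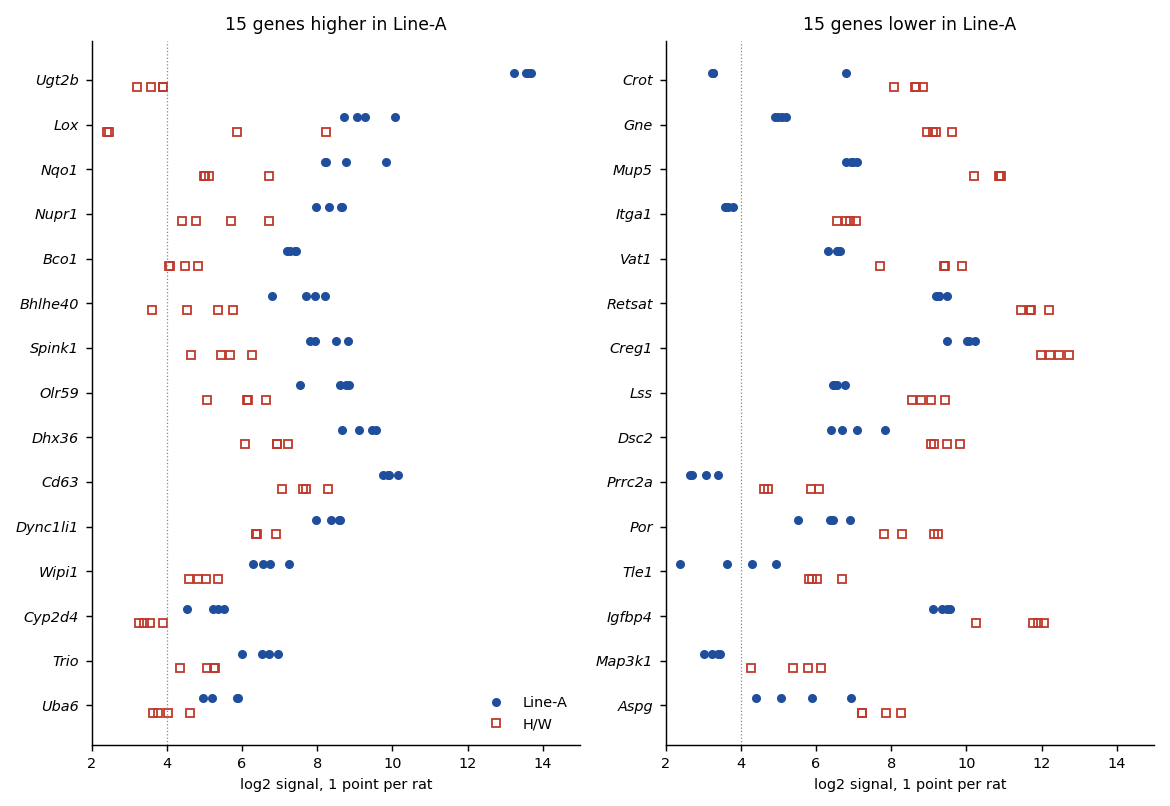
Log2 signal (horizontal axis) of the 30 named genes with the largest differences, 1 row per gene, with filled points for Line-A rats, open squares for H/W rats and a dotted line at the limit of 4, in 1 panel for the 15 higher and 1 for the 15 lower genes. *Ugt2b* shows the widest gap, and the H/W points of *Lox* and the Line-A points of *Crot* are the most scattered.

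The pathway lists were read against all genes, 1 ProbeSet per gene. Of 5388 measured genes 310 (5.75%) were called, 159 higher (2.95%) and 151 lower (2.8%) in Line-A, and the median difference over all was 0.03. At 5% FDR 710 genes (13.2%) passed, 372 higher (6.9%) and 338 lower (6.27%). Signals are from whole liver, where fewer cells of a type and less mRNA per cell cannot be told apart.

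Cholesterol is made from acetyl-CoA by way of mevalonate, squalene and lanosterol, and most of the enzymes are driven together by the transcription factor SREBP2. Of 20 measured genes of this list 0 were called higher and 3 (15%) lower in Line-A, and at 5% FDR 11 passed (55.0%), all lower. The count at 5% FDR was 5 to 12 with 1 array left out, and 2 with scan day as a random block or without both Line-A rat 4 and H/W rat 3. The difference was negative for 19 genes, with a median of -0.71. *Lss*, which closes oxidosqualene to lanosterol, read 6.48, 6.46, 6.78 and 6.55 in Line-A, against 8.79, 9.06, 9.43 and 8.54 in H/W. It was 5.22-fold lower in Line-A (difference -2.38 ± 0.21 SE, adjusted p = 3.28e-06, and 6.86e-05 with scan day as a random block), and a second ProbeSet was 2.96-fold lower (1.37e-04). *Lss* averaged 6.92 in Line-C, 6.77 in L-E and 8.23 in S-D. *Idi1*, the isopentenyl-diphosphate isomerase, had another order in the 3 other populations and averaged 10.36 in Line-C, 10.43 in L-E and 9.28 in S-D. It read 9.07, 8.38, 9.05 and 8.69 in Line-A, against 10.41, 10.85, 10.87 and 9.46 in H/W, and the groups did not overlap (3.04-fold lower in Line-A, adjusted p = 0.0096). *Sc5d*, the lathosterol desaturase near the end of the pathway, read 10.70, 10.60, 10.66 and 10.67 in Line-A, against 11.18, 11.38, 11.50 and 11.04 in H/W (1.54-fold lower in Line-A, adjusted p = 0.00258).

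Early, middle and regulatory steps were among the genes that passed only at 5% FDR. They were *Fdft1*, the squalene synthase (-0.73, adjusted p = 0.0104), *Cyp51*, the lanosterol demethylase (-0.80, 0.0115), *Acat2*, the first enzyme (-1.18, 0.0175), *Sqle*, the squalene epoxidase (-1.42, 0.0292), *Scap*, the escort protein of SREBP (-0.76, 0.031), *Mvk* (-1.12, 0.0319) and *Pmvk* (-0.87, 0.042), both kinases of the mevalonate steps, and *Srebf2*, the gene of SREBP2 (-1.0, 0.044). Members with small differences were *Dhcr7*, the last reductase (-0.05, adjusted p = 0.919), *Tm7sf2* (-0.11, 0.742) and *Insig1*, the sterol-regulated retention protein (-0.22, 0.697), and *Mvd* differed by 0.15 (0.657). The list's mean signal was 8.64, 8.87, 9.16 and 8.94 in Line-A, against 9.45, 9.95, 10.05 and 9.14 in H/W, so that H/W rat 4 lay beside the highest Line-A rat. Without H/W rat 4 the number called was 8, and without H/W rat 2 it was 1. It was also 1 with scan day as a random block, where *Idi1* (adjusted p = 0.0575) and *Sc5d* (0.0201) were lost. *Idi1* was lost without any 1 array but that of H/W rat 4 (up to 0.0354), and *Sc5d* without H/W rat 2 (0.0104).

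The promoters of the 3 called genes are shown because they carried the calls of this pathway. They are RefSeq sequences of GRCr8 with the same window as above, for *Lss* (chr20:12118181-12118480, - strand), *Idi1* (chr17:66547475-66547774, - strand) and *Sc5d* (chr8:51538228-51538527, - strand). Capitals mark the letters of a CCAAT box, which read ATTGG where the box lies on the other strand. Their first letter lies 82 bases before the start in *Lss*, 66 and 35 in *Idi1*, and 87 in *Sc5d*.
Lss: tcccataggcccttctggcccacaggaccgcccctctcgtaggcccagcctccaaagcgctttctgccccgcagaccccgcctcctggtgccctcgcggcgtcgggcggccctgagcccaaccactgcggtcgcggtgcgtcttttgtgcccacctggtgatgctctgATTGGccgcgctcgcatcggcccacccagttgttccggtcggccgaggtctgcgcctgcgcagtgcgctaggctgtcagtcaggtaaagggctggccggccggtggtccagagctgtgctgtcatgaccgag
Idi1: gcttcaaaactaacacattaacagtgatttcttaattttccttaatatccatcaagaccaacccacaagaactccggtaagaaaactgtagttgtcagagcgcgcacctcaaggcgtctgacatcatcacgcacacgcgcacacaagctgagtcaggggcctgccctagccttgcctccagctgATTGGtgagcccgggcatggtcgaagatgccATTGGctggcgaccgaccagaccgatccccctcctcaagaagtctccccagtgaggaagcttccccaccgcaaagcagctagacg
Sc5d: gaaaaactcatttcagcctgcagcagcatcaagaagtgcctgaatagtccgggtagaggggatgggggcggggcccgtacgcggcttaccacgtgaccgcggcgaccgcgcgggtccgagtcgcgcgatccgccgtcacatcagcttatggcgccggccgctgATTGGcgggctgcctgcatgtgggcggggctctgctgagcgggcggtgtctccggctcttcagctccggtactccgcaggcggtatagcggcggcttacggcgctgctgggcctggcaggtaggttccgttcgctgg
A RefSeq promoter was matched for 17 of the 20 measured genes. CCAAT or ATTGG was found in 13 of 17, against 37.5% of all 33469 promoters. The E-box letters CACGTG were found in 3 of 17, against 6.42% of all. TATAAA was found in 0 of 17, against 14.2% of all, and the sterol element searched as TCACNCCAC in 0 of 17, against 1.12% of all (each on both strands). No binding was measured here.

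In fat oxidation 5 genes were called lower in Line-A, and 1 Line-A rat stood apart in oxidation and synthesis genes. Of 38 measured genes of fatty acid oxidation and ketogenesis, 1 was called higher and 5 lower in Line-A (15.8% in all), and the median was -0.18 with 27 negative. Besides *Crot*, the lower genes were *Cyp4a3*, a fatty acid ω-hydroxylase, *Eci1* and *Acadl*, a mitochondrial isomerase and a dehydrogenase of β-oxidation, and *Fabp1*, the liver fatty acid-binding protein. *Eci1* read 11.06, 10.26, 10.39 and 10.24 in Line-A, against 11.78, 12.08, 12.19 and 11.62 in H/W (2.7-fold lower in Line-A, adjusted p = 0.00283). *Cyp4a3* read 10.57, 8.43, 8.87 and 8.81 in Line-A, against 10.51, 11.13, 11.80 and 11.16 in H/W (3.94-fold lower in Line-A, adjusted p = 0.00997), and here Line-A rat 1 overlapped with H/W. *Fabp1* read 15.36, 15.23, 15.31 and 15.26 in Line-A, against 15.52, 15.57, 15.53 and 15.50 in H/W (difference -0.24, adjusted p = 0.00264), and *Acadl* differed by -0.48 (0.0045). The higher gene was *Acsl1*, which activates long-chain fatty acids, with 13.12, 13.26, 13.17 and 13.10 in Line-A, against 12.93, 12.80, 12.93 and 12.99 in H/W (0.25, adjusted p = 0.00813).

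Line-A rat 1 was the highest Line-A rat for 27 of these 38 genes (71.1%), against 26% of all expressed ProbeSets. *Cyp4a1*, another ω-hydroxylase, read 13.36, 10.07, 10.11 and 11.18 in Line-A, and *Cpt1a*, which admits fatty acids to the mitochondrion, read 10.93, 8.94, 8.89 and 9.61. Their group means differed from those of H/W by 0.19 (adjusted p = 0.83) and -0.23 (0.727). The list's mean signal was 10.67, 10.12, 10.13 and 10.15 in Line-A, against 10.47, 10.71, 10.69 and 10.61 in H/W, so that Line-A rat 1 lay with the H/W rats. Between 1 and 7 members were called with 1 array left out, and 0 with scan day as a random block, where the adjusted p was 0.024 for *Fabp1*, 0.0539 for *Acsl1*, 0.0257 for *Eci1*, 0.0373 for *Acadl*, 0.068 for *Cyp4a3* and 0.0104 for the *Crot* ProbeSet of the list. *Eci1* and *Acadl* were each lost without Line-A rat 2, 3 or 4 or H/W rat 2 or 3 (up to 0.0118 and 0.0172), and *Cyp4a3* without any 1 array but that of Line-A rat 1 (up to 0.0354). *Fabp1* was lost without any 1 of 3 arrays and *Acsl1* without any 1 of 7 (up to 0.0108 and 0.0306).

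Of 24 measured genes of fatty acid synthesis and lipogenesis 0 were called at 1% FDR, and 3 (12.5%) passed at 5%, all higher in Line-A, which is near the 13.2% of all genes. The count at 5% was 0 with scan day as a random block and without both Line-A rat 4 and H/W rat 3, and with 1 array left out 0 to 5 were higher. *Fasn*, the fatty acid synthase, read 11.52, 12.30, 11.91 and 11.54 in Line-A, against 11.13, 10.30, 10.67 and 9.37 in H/W, without overlap (difference 1.45, adjusted p = 0.0339). *Scd*, the stearoyl-CoA desaturase, read 12.28, 13.77, 13.04 and 13.24 in Line-A, against 12.65, 9.93, 10.53 and 9.72 in H/W (2.38, adjusted p = 0.0272). The highest H/W rat, rat 1, lay above the lowest Line-A rat, also rat 1. *Acaca*, the acetyl-CoA carboxylase, differed by 1.06 (adjusted p = 0.0294), *Thrsp*, a lipogenic nuclear protein, by 1.37 (0.0518) and *Acly*, which supplies cytosolic acetyl-CoA, by 1.14 (0.0773). Line-A rat 1 was the lowest Line-A rat for 15 of the 24 genes (62.5%) and for 11 of the 20 cholesterol genes (55%), against 26.6% of all expressed ProbeSets.

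The called genes of the respiratory chain, the complexes of the inner mitochondrial membrane that pass electrons to oxygen and make ATP, were all higher in Line-A, by small amounts. Of 62 measured, 11 (17.7%) were called higher and 0 lower in Line-A, and at 5% FDR 20 (32.3%) were higher and 0 lower. The count at 5% FDR was 9 with equal array medians, 11 with scan day as a random block and 14 to 22 with 1 array left out. The median was 0.15, with 49 positive. *Atp5po*, a stalk subunit of ATP synthase, read 11.41, 11.52, 11.45 and 11.51 in Line-A, against 11.01, 10.62, 10.97 and 10.94 in H/W (1.5-fold higher in Line-A, adjusted p = 2.09e-04). *Ndufv3*, a subunit of complex I, read 10.02, 9.96, 9.91 and 10.05 in Line-A, against 9.40, 9.45, 9.64 and 9.17 in H/W (1.48-fold, adjusted p = 5.52e-04). Neither gene overlapped between the groups. Further called members came from complex II (*Sdha* 0.37, *Sdhd* 0.30), complex III (*Uqcrq* 0.32, *Uqcrc2* 0.31), complex IV (*Cox7b* 0.38, *Cox8a* 0.35, *Cox5b* 0.31, *Cox7c* 0.29) and ATP synthase (*Atp5mc3* 0.25), with adjusted p from 6.84e-04 (*Uqcrq*) to 0.00793 (*Sdhd*). The list's mean signal was 10.73, 10.80, 10.73 and 10.76 in Line-A, against 10.64, 10.50, 10.72 and 10.56 in H/W, so all 4 Line-A rats were above all H/W rats by at least a small margin. With scan day as a random block *Atp5po* (adjusted p = 0.00312), *Ndufv3* (0.00326) and *Uqcrq* (0.00681) were called and the other 8 were not (0.0199 to 0.0434). *Atp5po*, *Ndufv3*, *Uqcrq* and *Cox5b* stayed called whichever 1 array was left out, *Cox7b* was lost without Line-A rat 4 (0.0107), and the other 6 without any 1 of 3 to 7 arrays (up to 0.029). The count at 1% FDR was 4 with equal array medians, and between 4 and 12 with 1 array left out. In the citric acid cycle 2 of 22 genes were called (9.09%), *Sdha* and *Idh3g*, a subunit of isocitrate dehydrogenase (0.71, adjusted p = 4.93e-04), both higher in Line-A, of which *Idh3g* was also called with scan day as a random block (0.0032). Cytosolic ribosomal proteins had 1 of 38 called (2.63%), *Rps6* (0.28, adjusted p = 0.00181, 0.0182 with scan day as a random block), and a median of 0.06.

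In drug oxidation, 0 of 49 measured genes were called higher and 5 (10.2%) lower in Line-A, with a median of -0.05. *Cyp2d4* counts as not called here by its brighter ProbeSet (1.16, adjusted p = 0.0534). Its other ProbeSet, described above, was called higher in Line-A (at least 2.23-fold, adjusted p = 7.89e-04). *Por*, the reductase that feeds electrons to all microsomal P450 enzymes, read 7.54, 8.16, 8.12 and 8.13 in Line-A, against 10.18, 9.23, 10.42 and 9.06 in H/W. No array overlapped, and the difference was -1.74 (adjusted p = 0.00257, 0.0214 with scan day as a random block, 0.0101 without H/W rat 1). A second *Por* ProbeSet differed by -2.30 (0.00235). *Cyp3a2*, a male-predominant rat P450 of drug and steroid oxidation, read 13.56, 13.72, 13.12 and 13.23 in Line-A, against 14.27, 14.21, 14.27 and 14.29 in H/W. The H/W rats lay close together, and *Cyp3a2* was 1.81-fold lower in Line-A (adjusted p = 1.07e-04, 0.00169 with scan day as a random block). The others were *Cyp4a3*, above, and the aldehyde dehydrogenases *Aldh2* (-0.41, adjusted p = 0.00233, lost without Line-A rat 4) and *Aldh3a2* (-0.37, 0.00542, lost without any 1 of 5 arrays, up to 0.0209), which had adjusted p of 0.0223 and 0.0403 with scan day as a random block. The count was 1 with scan day as a random block and between 2 and 7 with 1 array left out.

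Among 33 measured conjugation genes 1 was called higher (*Ugt2b*) and 2 lower in Line-A (9.09% in all). *Sult1e1*, the estrogen sulfotransferase, read 13.36, 13.53, 13.36 and 13.20 in Line-A, against 14.46, 14.26, 14.41 and 14.22 in H/W (1.97-fold lower in Line-A, adjusted p = 3.90e-07). *Gstm4*, a glutathione S-transferase, read 6.69, 7.22, 7.35 and 7.75 in Line-A, against 9.33, 9.12, 9.36 and 8.28 in H/W (3.41-fold lower in Line-A, adjusted p = 1.72e-04). Neither overlapped, and all 3 calls were also made with scan day as a random block. Of the antioxidant genes 3 of 26 were called (11.5%), all higher in Line-A: *Nqo1*, *Taldo1* of the pentose phosphate pathway (0.93, adjusted p = 2.09e-04) and the aldehyde reductase *Akr7a2* (0.61, 0.00257, lost without Line-A rat 2 or 3, up to 0.0104). With scan day as a random block *Taldo1* was called (0.00279) and *Akr7a2* was not (0.0225). The median of this list was -0.07. Among 7 measured genes of AHR and its basal targets *Nqo1* was higher and *Selenbp1* (-1.01, adjusted p = 9.46e-04) lower in Line-A. Neither was called with scan day as a random block (0.0545 and 0.01), and 0 of the 7 were called without both Line-A rat 4 and H/W rat 3.

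Of 31 measured protease inhibitors 4 (12.9%) were called higher and 0 lower in Line-A. *Serpina3m* read 12.56, 12.64, 12.53 and 12.63 in Line-A, against 11.89, 11.86, 12.07 and 11.90 in H/W (1.58-fold higher in Line-A, adjusted p = 1.20e-05). *Serpina4*, which inhibits tissue kallikrein, read 13.48, 13.44, 13.38 and 13.57 in Line-A, against 13.05, 12.85, 12.96 and 12.87 in H/W (1.45-fold, adjusted p = 2.04e-05). Both genes were separated without overlap and were also called with scan day as a random block. *Mug1*, a rat α-macroglobulin, read 14.60, 14.69, 14.66 and 14.50 in Line-A, against 13.90, 13.92, 12.49 and 13.93 in H/W, with H/W rat 3 well below the others (1.05, adjusted p = 0.00813, 0.0545 with scan day as a random block). *Mug1* was lost without any 1 of the Line-A arrays (up to 0.0257). The fourth was *Spink1*, above. The count lay between 2 and 6 with 1 array left out.

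Of 28 genes known to depend on sex or growth hormone in liver, 1 was called higher and 4 lower in Line-A (17.9% in all). The lower ones were *Mup5*, *Cyp3a2*, *Sult1e1* and *Akr1d1*, the bile acid and steroid 5β-reductase (-0.78, adjusted p = 0.00753, 0.0544 with scan day as a random block). The higher one was *Hao2*, a peroxisomal hydroxyacid oxidase (1.21, adjusted p = 0.00334, 0.027 with scan day as a random block). Of 35 lysosome genes 3 were higher and 2 lower in Line-A (14.3% in all): besides *Cd63* and *Creg1*, these were the proteases *Ctsb* (0.38, adjusted p = 0.00151), *Ctsf* (0.64, 0.00258) and *Tpp1* (-0.59, 0.00735). In the list used for iron handling 2 of 13 were lower (15.4%). They were *Cyb5b*, a cytochrome b5 that carries electrons (-1.14, adjusted p = 5.69e-04), and the iron-regulatory aconitase *Aco1* (-0.87, 0.00175). In the urea cycle and amino acid breakdown 3 of 41 were higher and 1 lower (9.76% in all), led by *Bckdk*, the kinase that restrains branched-chain amino acid breakdown (0.90, 0.00469), and *Haao* of tryptophan breakdown (0.56, 1.13e-04). Among sulfur amino acid genes 1 of 15 was called (6.67%), *Gnmt*, the glycine methyltransferase (0.75, 0.00481). Among hepatocyte solute carriers 1 of 27 was higher, the taurine transporter *Slc6a6* (2.65, 0.0082). For *Slc6a6* the groups overlapped, with H/W rat 4 (7.75) above Line-A rat 1 (7.72). In the same list 2 were lower, the anion exchanger *Slc4a2* (-1.44, 7.84e-04) and the organic anion carrier *Slc17a3* (-1.25, 0.00379). In bile acid synthesis and transport 2 of 25 were higher, the uptake carrier *Slco1b2* (0.43, 0.00429) and the prostaglandin carrier *Slco2a1* (0.36, 0.00999), and *Akr1d1* was lower. With scan day as a random block *Mup5* (adjusted p = 8.20e-06), *Cyp3a2* (0.00169), *Sult1e1* (7.88e-06), *Cd63* (1.78e-05), *Creg1* (8.20e-06), *Ctsb* (0.00786), *Cyb5b* (0.00337), *Haao* (0.00182) and *Slc4a2* (0.00577) were also called, and the other called genes of these lists were not (0.0179 for *Aco1* to 0.062). With 1 array left out, *Hao2* was lost without Line-A rat 3 or 4 (up to 0.014), *Ctsf* without Line-A rat 4 or H/W rat 1 or 2 (up to 0.011) and *Slc17a3* without H/W rat 2 or 3 (up to 0.0128). *Akr1d1*, *Tpp1*, *Bckdk*, *Gnmt*, *Slc6a6*, *Slco1b2* and *Slco2a1* were each lost without any 1 of 5 to 7 of the 8 arrays (up to 0.0322).

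Each of the other lists had 2 or fewer called genes, and their shares stand beside the 5.75% of all measured genes. Acute-phase and plasma proteins had 1 higher (*F10*, coagulation factor X, 0.18, adjusted p = 0.00779) and 1 lower (*Igfbp4*) of 34 (5.88% in all). Of 17 retinoid genes *Bco1* was higher and *Rdh10* lower (-0.78, 0.00428), 11.8% in all. *Retsat* (-2.47, adjusted p = 1.58e-08), described above, is not a member of that list. Of 16 genes of antigen presentation by MHC class I *Erap1* was higher (0.73, 0.00469) and *Psme1* lower (-0.55, 5.20e-04), 12.5% in all. The stress response list had 1 of 19 (*Nupr1*, 5.26%) and the circadian clock 1 of 8 (*Bhlhe40*, 12.5%). Sterol transport (21 genes), glycolysis and gluconeogenesis (22), MHC class II (7) and interferon-stimulated genes (17) had 0 called at 1% FDR, and 5, 2, 0 and 3 at 5% in that order. These are 23.8%, 9.09%, 0% and 17.6%, against 13.2% of all genes at 5%. With scan day as a random block 0 sterol transport genes passed at 5%. *F10*, *Rdh10* and *Erap1* were lost without any 1 of 4 to 7 of the 8 arrays (up to 0.0227), and with scan day as a random block they had adjusted p of 0.0527, 0.032 and 0.0385. *Igfbp4* (adjusted p = 0.00114), *Bco1* (3.73e-08), *Nupr1* (0.00238) and *Psme1* (0.00522) were also called with that block.

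**Figure D4:**
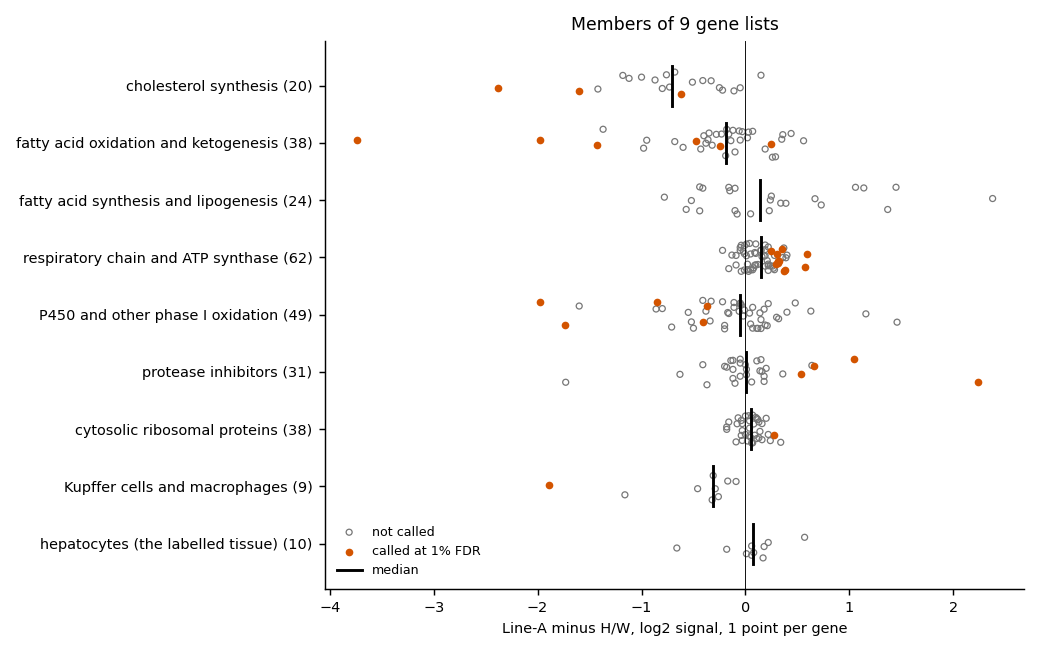
Line-A minus H/W difference (log2, horizontal axis) of every measured gene of 9 lists, 1 row per list, with open points for genes not called, filled points for called genes and a bar at the list's median. Cholesterol synthesis lies mostly left of 0 with a median of -0.71, and the respiratory chain lies slightly right of 0 with a median of 0.15.

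Markers of the other cells of liver were examined because Line-A and H/W livers could differ in cell content. All 9 measured markers of Kupffer cells, the resident macrophages of liver, had a negative difference, with a median of -0.31, and their summed log2 signal was 11.14 to 11.30 in Line-A and 11.45 to 11.94 in H/W. Only *Lyz2*, the lysozyme of macrophages, was called. It read 7.02, 7.76, 6.78 and 7.31 in Line-A, against 8.95, 8.78, 9.33 and 9.38 in H/W, without overlap (3.71-fold lower in Line-A, adjusted p = 3.44e-05, and 5.69e-04 with scan day as a random block). Line-C, L-E and S-D averaged 9.04, 9.02 and 8.67. *Cd14*, the endotoxin co-receptor, read 7.97, 7.81, 7.98 and 7.87 in Line-A, against 8.41, 8.75, 9.29 and 9.83 in H/W (-1.16, adjusted p = 0.0323), whereas *Clec4f*, the lectin of Kupffer cells, read 9.56, 9.62, 9.56 and 9.46 in Line-A, against 9.28, 9.80, 9.93 and 9.86 in H/W with overlap. The mean over the 9 markers was 7.43, 7.48, 7.39 and 7.34 in Line-A, against 7.76, 7.96, 8.06 and 8.07 in H/W. Lysosome and antigen presentation genes are also active in macrophages, and the part of these markers in their values was not tested. Stellate cell markers had 1 of 11 called (*Lox*), cholangiocyte markers 1 of 2 (*Anxa4*, 1.37, adjusted p = 0.00293, lost without Line-A rat 2 or 3 or H/W rat 1, up to 0.012, and 0.0155 with scan day as a random block), and markers of endothelium 0 of 6. Of T and NK cells, erythroid cells, and neutrophils and mast cells, 1, 2 and 1 markers were measured and 0 called, and B and plasma cells had 0 measured. Markers of pericentral (6) and periportal hepatocytes (10) had 0 called at either FDR, with medians of 0.10 and 0.02.

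Line-C and L-E form the other pair of line and parent, share no array with Line-A and H/W, and both carry wild-type *Ahr*. Line-C minus L-E had 535 ProbeSets called (7.46%), and 127 were called in both pairs. Of these, 110 had the same sign, which is 25.2% of the 436 of Line-A and H/W and 20.6% of the 535 of Line-C and L-E, and 17 had opposite signs. Line-A and Line-C arrays share a scan day that no parent array has, so a shared sign and the scan day cannot be told apart. H/W and L-E were both under the limit for *Ugt2b*, which differed by at least 9.52 in Line-A minus H/W and at least 9.55 in Line-C minus L-E. *Spink1* differed by 2.75 in Line-A minus H/W and, with L-E under the limit, by at least 1.70 in Line-C minus L-E. In the same order of pairs, *Vat1* differed by -2.59 and -2.02, and *Slc4a2* by -1.44 and -1.53. A difference between the pairs, tested as an interaction, was called for 133 ProbeSets (1.86%), 66 positive and 67 negative, and 75 of these were also called between Line-A and H/W. The positive end held *Lox* (8.43), *RT1-N2* (5.70), *Olr59* (5.19), *Bco1* (3.46) and *Nupr1* (3.30). The negative end held *Itga1* (-5.48), *Creg1* (-4.82), *Mup5* (-4.14), *Gne* (-3.98) and *Letm1* (-3.93) among named genes, with adjusted p from 3.68e-09 (*Creg1*) to 0.00316 (*Nupr1*). All 4 Line-C rats were under the limit for *Lox* (mean 2.61) and *RT1-N2*, 2 H/W rats for *Lox*, and all 4 Line-A rats and 1 L-E rat for *Itga1*. With values under 4 raised to 4, the departures were 6.25 for *Lox*, 5.29 for *RT1-N2* and -5.04 for *Itga1*. The second *Lox* ProbeSet departed by 4.24, and by 3.68 with such values raised to 4. *RT1-N2*, a class I gene of the rat major histocompatibility complex whose relatives share sequence, read 7.97, 8.41, 7.92 and 8.08 in Line-A, against 8.74, 5.08, 9.03 and 9.26 in H/W. H/W rat 2 lay far below the others of its group, and the mean difference was 0.07 (adjusted p = 0.948). Line-C (3.58) and S-D (3.67) were under the limit and L-E (9.22) was high.

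**Figure D5:**
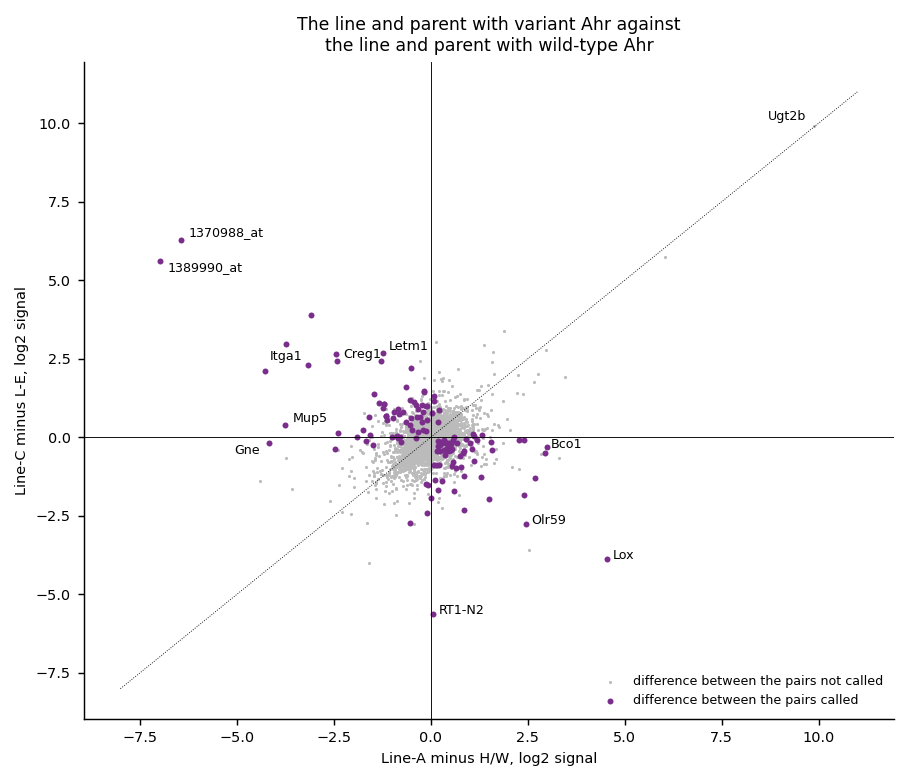
Line-C minus L-E difference (log2, vertical axis) against Line-A minus H/W difference (log2, horizontal axis) for the 7168 expressed ProbeSets, with the 133 whose difference between the pairs was called in colour and a dotted line where both differences are equal. *Ugt2b* lies at the far upper right at measured differences of 9.88 and 9.89, and *Creg1* and *Itga1* lie on the upper left.

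Of 5374 genes placed in the order of the reference annotation 308 were called, and the share by chromosome lay between 2.6% on chromosome 14 and 8.28% on chromosome 4. Neighbours were called together in 15 runs of 2 genes and 3 runs of 3, which held 39 genes. Over all measured genes 5.75% were called, and how many runs this share gives in a random gene order was not worked out. The runs are therefore listed as a description, and clustering was not tested. The runs of 3 were *Snrpb2*, *Rrbp1* and *Snx5* on chromosome 3, *Eef2*, *Map2k2* and *Sgta* on chromosome 7, and *Cyb5r4*, *Snx14* and *Nt5e* on chromosome 8. Only the run on chromosome 7 had 1 direction, with *Eef2* (translation elongation factor, -0.50, adjusted p = 0.00768), *Map2k2* (a MAP kinase kinase, -0.68, 3.11e-04) and *Sgta* (a co-chaperone, -0.58, 0.00151) all lower in Line-A. For *Eef2* the groups overlapped, with Line-A rat 1 (12.73) above H/W rat 4 (12.71). *Map2k2* read 9.93, 9.81, 9.75 and 9.67 in Line-A, against 10.58, 10.53, 10.56 and 10.20 in H/W, without overlap. On chromosome 3 *Snrpb2* (a spliceosome protein, -0.49, 0.00644) and *Rrbp1* (a ribosome-binding protein, -0.43, 0.00567) were lower and *Snx5* (a sorting nexin, 0.63, 7.84e-04) was higher in Line-A. On chromosome 8 *Cyb5r4* (0.62, 0.00899) and *Nt5e* (the ecto-5′-nucleotidase, 0.53, 0.00544) were higher and *Snx14* (-0.66, 0.00374) was lower in Line-A. Of these 9 genes, *Snx5* and *Map2k2* were also called with scan day as a random block (adjusted p = 0.00777 and 0.00337). *Sgta*, *Snx5* and *Map2k2* stayed called whichever array was left out, and the other 6 were each lost without any 1 of 5 to 7 of the 8 arrays (up to 0.0356). A pair of members of 1 family were neighbours in *Serpina4* and *Serpina3m* on chromosome 6 and in *Spink1l* and *Spink1* on chromosome 18. *Spink1l* read 13.51, 13.39, 13.34 and 13.48 in Line-A, against 12.73, 12.24, 12.50 and 12.95 in H/W (1.77-fold higher in Line-A, adjusted p = 0.00122).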

How the data were processed

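Liver RNA of 20 rats was hybridised to Affymetrix RAE230A arrays, 1 rat per array. The authors made the deposited log2 signals with GC-RMA, a method that subtracts background according to probe GC content, quantile-normalizes the arrays and combines the probes of each ProbeSet, and the submitters' processing notes name R 2.6.1, affy 1.12.0 and GCRMA 2.10.0. This shrinks dim signals towards a floor and leaves ratios against unexpressed ProbeSets as bounds. The deposited log2 values were used without further scaling. The headers of the arrays served only for scan day, chip lot, operator and station. The small number of arrays limits the precision.

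Means of the 5 populations were fitted to all 20 arrays with lmFit and eBayes of limma 3.58.1 in R 4.3.3 (statmod 1.5.0 for the random block), with two-sided p-values and Benjamini-Hochberg adjustment over all 15923 ProbeSets. ProbeSets were called at an adjusted p under 0.01 and counted where the mean over the 20 arrays was at least 4. Of 15923 ProbeSets 12789 carry 1 gene symbol in the platform annotation, 312 several and 2822 none, and symbols were updated through RefSeq gene IDs. A gene with several ProbeSets was represented in the 38 lists (1018 symbols, 793 on the array) by the one with the highest mean. Where arrays of the lower group were under 4, a fold was computed with those values raised to 4 and given as at least that fold.

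The members and lists were chosen with earlier results of these data known. Named were the 15 largest differences in each direction without overlap of the arrays, up to 4 called genes per list, the 5 largest departures from Line-C minus L-E in each direction, members of runs of 3 or more neighbours, abundant called genes, and *Ahr* and *Cyp1a1*. *Acsl1*, *Fabp1*, *Aldh3a2*, *Ctsb*, genes that passed only at 5% FDR, *Cpt1a*, *Cyp4a1*, *Ugt2b1*, *Ugt2b35* and other members given with an uncalled value do not follow from this rule, and their values were known when they were picked. Recovery was tested on simulated data. Alternatives were array weights, limma's trend, equal array medians, quantile normalization once more, the replicate number as a block, the 8 arrays alone, scan day as a random block, each array left out, other filters on the mean and 5% FDR. Only H/W rats 2 and 3, only H/W rats 1 and 4, and leaving out Line-A rat 4 and H/W rat 3 were added after seeing the data.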

Additional observations from a re-analysis of the deposited data

Results flagged for a closer look

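Of 182 groups of 4 rats examined over the named ProbeSets, 12 held a rat whose gap to the next relative to the group's range exceeded Dixon's critical value, and chance gives about 1 in 20. H/W rat 2 was high for *Nqo1* (6.71, next 5.11) and *Dync1li1* (6.91, next 6.4) and low for *Mup5* (10.21, next 10.86) and *RT1-N2* (5.08, next 8.74). H/W rat 4 was low for *Igfbp4* (10.25, next 11.77) and *Map2k2* (10.20, next 10.53), and H/W rat 3 was low for *Mug1* (12.49, next 13.90). Line-A rat 1 was high for *Crot* (6.79, next 3.26) and *Psme1* (11.25, next 11.03) and low for *Por* (7.54, next 8.12) and *Slc4a2* (6.45, next 6.91), and Line-A rat 4 was low for *Slc17a3* (7.33, next 8.31).

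The difference of Line-A minus H/W departed from that of Line-C minus L-E, tested as an interaction in limma, for 22 of the named ProbeSets. The departure was positive, that is, higher for Line-A minus H/W, in *Lox* (8.43, adjusted p = 0.00242), *RT1-N2* (5.70, 0.00149), *Olr59* (5.19, 3.48e-05), *Bco1* (3.46, 8.37e-08), *Nupr1* (3.30, 0.00316), *Dhx36* (2.50, 1.17e-04), *Cd63* (2.35, 9.62e-05), *Spink1l* (1.33, 8.19e-04), *Atp5po* (0.58, 0.00846) and *F10* (0.29, 0.00725). It was negative in the ProbeSets 1370988_at (-12.73, 5.79e-13) and 1389990_at (-12.59, 1.33e-14), and in *Itga1* (-5.48, 3.48e-05), *Creg1* (-4.82, 3.68e-09), *Mup5* (-4.14, 1.56e-05), *Gne* (-3.98, 2.73e-07), *Letm1* (-3.93, 6.29e-08), *Lss* (-2.54, 1.09e-04), *Retsat* (-2.08, 2.15e-05), *Lyz2* (-1.92, 0.00162), *Cyb5b* (-1.67, 7.89e-04) and *Cyp3a2* (-0.83, 0.00528).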

How the results depend on the processing

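The counts of 436 called, 215 higher, 221 lower, 142 of at least 2-fold and 133 departing from Line-C minus L-E stayed within 1.5 times of these values with limma's trend, a further quantile normalization and the other filters on the mean. Array weights gave 334 higher in Line-A (557 called in all) and 538 departures, and equal array medians gave 111 higher. The 8 arrays alone gave 47 called, 25 higher, 22 lower and 33 of at least 2-fold, from fewer arrays to estimate the spread. In that fit only *Ugt2b*, *Bco1*, *Cd63* and *Dync1li1* of the 15 largest higher named genes kept their calls. Of the 15 largest lower ones only *Gne*, *Mup5*, *Itga1*, *Retsat*, *Creg1* and *Lss* kept theirs. There the calls of *Lyz2*, *Cyp3a2*, *Gstm4*, *Atp5po* and *Ndufv3* were lost as well, whereas those of *Sult1e1*, *Serpina3m* and *Serpina4* were kept. Scan day as a random block gave 154, 71, 83 and 77. At 5% FDR there were 964 called, 492 higher, 472 lower and 296 departures. Only H/W rats 1 and 4 gave 215, 133, 82 and 79, and leaving out both Line-A rat 4 and H/W rat 3 gave 232, 135, 97 and 90, alternatives chosen after seeing the data. With 1 array left out, 259 to 528 ProbeSets were called, 107 to 221 higher, 135 to 307 lower, 98 to 171 of at least 2-fold and 86 to 137 departing. The total moved by over 1.5 times without Line-A rat 3 or 4 or H/W rat 2, the higher count also without Line-A rat 2 (143), and the departures without Line-A rat 3 (86). The causes were not tested. Replicate numbers did not pair the animals (correlations of same-numbered deviations -0.2289, -0.3408, 0.0921 and 0.0744), and a replicate block gave 361 called, 181 higher and 180 lower. Of the named ProbeSets only *RT1-N2* changed sign (-0.92 to 0.48 with 1 array left out), to -0.04 without Line-A rat 2, -0.92 without H/W rat 2 (adjusted p = 6.65e-04) and -0.91 with only H/W rats 1 and 4 (0.00361). Brightness near the floor of GC-RMA limits the ratios of *Ugt2b*, *Crot*, *Itga1*, *Prrc2a*, *Map3k1*, *Tle1*, *Cyp2d4* and 1389990_at to lower bounds. The difference of *Lox* and the departures of *Lox*, *RT1-N2* and *Itga1* rest in part on such values.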
